A study of Mus musculus with 18 samples.

Results

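The nuclear genes of the mitochondrial respiratory chain were followed in neutrophils sorted from mouse bone marrow, before and after culture with the growth factor GM-CSF. Members were genes whose symbol fits a naming pattern for nuclear-encoded subunits of complex I (Nduf, then a, b, c, s or v and a number), complex II (Sdh), complex III (Uqcr), complex IV (Cox4 to Cox8, and Ndufa4) or complex V (Atp5). Subunit genes with other names are not members. They also had to be protein-coding, to average at least 1 CPM (read counts scaled to library size) over the 18 libraries, and to lie outside 95 to 124 Mb of chromosome 9 (mm10), the window around Cish. The members were thus chosen by their mean level over all libraries as well as by name, and the set was proposed with its course over the 6 groups already known. This left 71 members of 53379 genes in the count table: 33 of complex I, 4 of complex II, 7 of complex III, 11 of complex IV and 16 of complex V. The 6 groups of 3 libraries were neutrophils labelled CIS-/- and WT neutrophils, all from mice 10 weeks old, unstimulated as sorted, or after 4 h or 24 h in culture with 100 ng/mL GM-CSF. CIS, the product of Cish, is an inhibitor of cytokine receptor signalling, and the study asked what its loss changes in the neutrophil response to GM-CSF. The labels do not say whether the 3 libraries of a group came from separate mice, and each p-value reflects no more than library-to-library spread, which may be technical. One protocol field gives 42 h where the titles give 24 h, and 24 h is used here. No culture without GM-CSF was analysed here, and the effects of GM-CSF and of time in culture cannot be told apart.

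The respiratory chain passes electrons from NADH through complex I, or from succinate through complex II, to ubiquinone, then through complex III and cytochrome c to complex IV, which reduces oxygen. The protons pumped on the way drive ATP synthesis by complex V. Most subunits are encoded in the nucleus and imported, while a small core of complexes I, III, IV and V is encoded by mitochondrial DNA. Neutrophils hold few mitochondria and make most of their ATP by glycolysis.

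Total counts ran from 12170524 to 22539858 per library, and the members together took between 0.192% and 0.340% of them. Cish, the targeted gene, averaged 18.7 ± 1.1 CPM in unstimulated libraries labelled CIS-/- and 6.50 ± 0.019 CPM in WT (SD, n = 3 each), the reverse of a loss of its transcript. At 4 h the means were 240.0 ± 3.2 CPM in libraries labelled CIS-/- and 1148 ± 9.3 CPM in WT, and at 24 h they were 238 ± 5.1 CPM in those labelled CIS-/- and 1059 ± 7.4 CPM in WT. These counts do not settle whether the label holds, and the libraries are therefore named by their label throughout. Replicate 1 labelled CIS-/- at 24 h stood apart, with a sum over the members of 2487 CPM beside 2202 and 2185 CPM in replicates 2 and 3. Summed neutrophil markers were the highest of the marker lists in every group, although they ranged from 26340 to 31450 CPM at 24 h, against 109200 to 115000 CPM unstimulated. CPM values rest on library sizes scaled by TMM factors, which ran from 1.282 to 1.290 in WT libraries at 24 h and from 0.8843 to 0.8940 in libraries labelled CIS-/- at 24 h. Many calls at 24 h depend on these factors, and the counts over the members and over the other gene lists are given with and without them where the split changes. In bulk RNA, fewer cells of a type and less RNA per cell cannot be told apart.

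The members covered a wide range of levels. Per kilobase of exon, Cox8a, a small membrane subunit of complex IV, was the highest member in unstimulated WT libraries at 137 CPM per kb. It was followed by Cox4i1 at 79.7, Cox6a1 at 75.8, Cox6b1 at 74.2 and Ndufa1 of complex I at 66.2 CPM per kb. In complex V the catalytic beta subunit gene Atp5b led at 59.8 CPM per kb, in complex II the membrane anchor gene Sdhd at 52.5, and in complex III Uqcr10 at 41.6. The lowest members were Atp5g1 at 0.394 and Ndufa12 at 0.605 CPM per kb. Just inside the threshold of the rule, on its own scale of CPM without TMM factors, were Ndufa12 with a mean of 1.001, Ndufb4 with 1.43 and Atp5g2 with 1.54. Just outside were Atp5s with 0.953, Ndufb2 with 0.911 and Ndufa5 with 0.583.

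The tissue-specific isoforms of complex IV were at or near 0. Cox4i2, Cox6a2, Cox6b2, Cox7a1, Cox7b2, Cox8b, Cox8c and the Ndufa4 relative Ndufa4l2 all averaged under 1 CPM, while their relatives Cox4i1, Cox6a1, Cox6b1, Cox7a2, Cox8a and Ndufa4 were all members. Of the genes that encode the c-ring of complex V, Atp5g3 averaged 27.1 ± 2.8 CPM in unstimulated WT libraries, while Atp5g1 averaged 1.94 ± 0.48 and Atp5g2 1.59 ± 0.43 CPM. Of 96 symbols with a fitting pattern, 12 were not protein-coding, 11 averaged under 1 CPM, 1 (Uqcrc1) lay in the window around Cish, and 1 (Cox7a2l) is an assembly factor. Of those not protein-coding, Ndufb1-ps averaged 61.3 CPM. The pattern also leaves out Ndufab1 of complex I, Cyc1 of complex III and Usmg5 of complex V. With TMM factors their log2 fold changes at 24 h were 1.19, -0.37 and 0.96 in libraries labelled CIS-/- and 1.33, 0.18 and 0.42 in WT. Statements on members do not cover these genes. Of the 71 members, 21 had at least 50% of their coding sequence in stretches at least 95% identical to another annotated gene. For these the counts are uncertain, since reads could be split or lost: Ndufa12, Ndufb3, Ndufb4, Ndufb11, Ndufs3, Ndufs5, Uqcr10, Uqcr11, Uqcrb, Cox5b, Cox6c, Cox7b, Cox7c, Atp5c1, Atp5f1, Atp5g1, Atp5g2, Atp5h, Atp5k, Atp5l and Atp5o. Another gene overlapped 34 members.

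The promoter of 1 member per complex is shown, the member with the largest mean change over the 4 comparisons of cultured with unstimulated cells (4 h and 24 h in each genotype). RefSeq (GRCm38.p6) gave a promoter window, 250 bases before to 50 after the transcription start, for 58 of the 71 members. In each line the letters run 5′ to 3′ on the gene's strand, and capitals mark matches, on either strand, to the motif of GABPA (CCGGAAG), an ETS factor known to act on respiratory chain genes, or to the GC box of SP1 (GGGCGG). The windows are chr17:31519865-31520164 (plus strand) for Ndufv3, chr4:140961021-140961320 (plus strand) for Sdhb, chr10:80406772-80407071 (minus strand) for Uqcr11, chr19:7217567-7217866 (minus strand) for Cox8a and chr2:10080461-10080760 (minus strand) for Atp5c1, which has 2 listed starts.
Ndufv3: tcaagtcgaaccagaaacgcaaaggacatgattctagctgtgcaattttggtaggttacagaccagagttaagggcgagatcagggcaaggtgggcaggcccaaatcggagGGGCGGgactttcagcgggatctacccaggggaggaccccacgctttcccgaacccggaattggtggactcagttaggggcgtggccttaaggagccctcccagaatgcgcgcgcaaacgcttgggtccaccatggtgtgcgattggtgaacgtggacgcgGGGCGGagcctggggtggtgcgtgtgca
Sdhb: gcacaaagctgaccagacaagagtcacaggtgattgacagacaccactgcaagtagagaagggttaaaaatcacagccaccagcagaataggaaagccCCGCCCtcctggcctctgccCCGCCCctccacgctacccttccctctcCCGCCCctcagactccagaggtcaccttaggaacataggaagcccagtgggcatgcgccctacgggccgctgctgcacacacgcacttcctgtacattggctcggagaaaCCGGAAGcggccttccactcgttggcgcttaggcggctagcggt
Uqcr11: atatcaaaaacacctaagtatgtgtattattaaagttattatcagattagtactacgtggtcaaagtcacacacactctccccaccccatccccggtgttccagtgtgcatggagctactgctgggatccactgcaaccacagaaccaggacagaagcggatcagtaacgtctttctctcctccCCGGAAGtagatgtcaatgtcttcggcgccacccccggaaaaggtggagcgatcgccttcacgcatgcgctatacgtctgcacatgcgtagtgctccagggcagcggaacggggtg
Cox8a: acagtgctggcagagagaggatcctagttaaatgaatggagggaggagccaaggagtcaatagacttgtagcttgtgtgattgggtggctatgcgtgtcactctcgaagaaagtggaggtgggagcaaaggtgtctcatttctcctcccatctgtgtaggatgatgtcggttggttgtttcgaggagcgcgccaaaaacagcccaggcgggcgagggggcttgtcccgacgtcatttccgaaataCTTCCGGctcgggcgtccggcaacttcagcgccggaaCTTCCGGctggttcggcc
Atp5c1: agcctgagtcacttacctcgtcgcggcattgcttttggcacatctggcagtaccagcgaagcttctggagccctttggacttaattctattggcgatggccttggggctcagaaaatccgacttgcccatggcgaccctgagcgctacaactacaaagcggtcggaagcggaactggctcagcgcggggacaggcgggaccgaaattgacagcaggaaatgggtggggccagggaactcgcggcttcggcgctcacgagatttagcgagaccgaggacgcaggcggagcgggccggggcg
Cox8a, whose transcript rose, and Uqcr11 and Sdhb, whose transcripts fell at 4 h in WT, all held a GABPA match, Ndufv3 held SP1 boxes alone, and Atp5c1 held no match to any motif searched. In all, 15 of 58 member promoters (25.9%) held that motif, as did 9.12% of 27025 promoters of the same length. The palindromic NRF1 motif, searched as its consensus, was in 6.90% of member promoters and 0.977% of all, the YY1 motif ATGGCGG in 13.8% and 4.19%, and the ERRA motif TCAAGGTCA in 3.45% and 0.407%. The SP1 box was in 37.9% of member promoters and 35.9% of all, and TTCNNNGAA, the motif of STAT5, the main factor downstream of the GM-CSF receptor, in 6.90% and 8.47%. A match is a string of letters and not a bound site.

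After 4 h with GM-CSF, most respiratory chain transcripts were lower than in unstimulated cells, in libraries labelled CIS-/- and in WT. In libraries labelled CIS-/-, where 77% of all genes were called (37.9% higher, 39.1% lower), 46 members fell and 6 rose, with a median of -0.36. In WT, 52 members fell and 5 rose, a share of 80.3% called, while 76.3% of the 11569 genes tested were called, 38.1% higher and 38.2% lower. The members' median log2 fold change in WT was -0.49, where the median of all genes was within 0.051 of 0 in every comparison. Marker sums of other cells moved with this comparison too. Dendritic markers summed to 106 to 114 CPM at 4 h against 46.2 to 49.8 CPM unstimulated in libraries labelled CIS-/-, and to 132 to 142 CPM at 4 h against 52.2 to 57.8 CPM unstimulated in WT. Platelet markers summed to 17.6 to 17.7 CPM at 4 h against 3.34 to 3.61 CPM unstimulated in libraries labelled CIS-/-, and to 21.7 to 25.1 CPM at 4 h against 2.81 to 4.43 CPM unstimulated in WT. Neutrophil markers summed to 64500 to 69340 CPM at 4 h against 109200 to 112900 CPM unstimulated in libraries labelled CIS-/-, and to 68990 to 70080 CPM at 4 h against 113900 to 115000 CPM unstimulated in WT. Their part in the members' changes was not tested. By median, complex I fell most in WT, with 26 of 33 members lower, 1 higher and a median of -0.56. Complex V had 11 of 16 members lower (median -0.43), complex III 6 of 7 (-0.32), complex IV 7 of 11 (-0.22) and complex II 2 of 4 (-0.07).

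Summed over the 33 members, complex I measured 707, 697 and 669 CPM unstimulated, 506, 516 and 485 CPM at 4 h and 525, 472 and 464 CPM at 24 h where the label was CIS-/-. In WT the same sums were 725, 739.7 and 717 CPM unstimulated, 505, 494 and 505 CPM at 4 h and 638, 619 and 628 CPM at 24 h. All 4 h sums thus lay below all unstimulated sums in both genotypes, and at 24 h all WT sums lay above all those labelled CIS-/-. The complex IV sums did not follow this course: at 24 h they were 782, 664 and 641 CPM in libraries labelled CIS-/- and 707, 658 and 676 CPM in WT, all above the unstimulated sums of 502, 492 and 501 CPM in those labelled CIS-/- and 492, 490.2 and 498 CPM in WT. The complex IV members themselves were split. At 24 h against unstimulated, 4 were higher and 4 lower in libraries labelled CIS-/- (median 0.05), and 3 and 3 in WT (median 0.08). Cox8a, which had the highest mean level of them, rose most, by 1.70 in libraries labelled CIS-/- and 1.58 in WT on the log2 scale. In both genotypes the gain of the complex IV sum was mostly that of Cox8a.

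**Figure D1:**
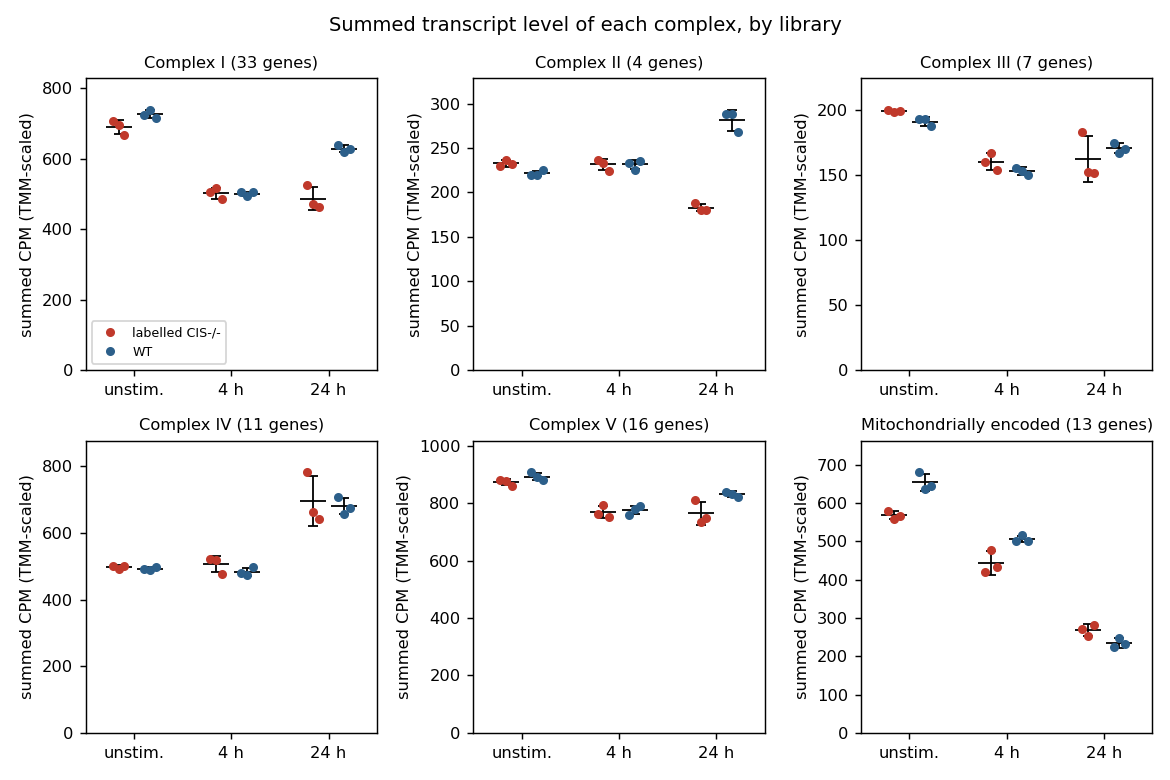
Summed CPM (TMM-scaled) of each complex's members and of the 13 mitochondrially encoded genes, by time, with libraries labelled CIS-/- (red) left of WT (blue); points are libraries, the bar and whiskers the mean ± SD (n = 3). Complex I was lower at 4 h in both genotypes, the complex IV sum was highest at 24 h, complex II at 24 h was 183 ± 4.13 CPM in libraries labelled CIS-/- and 281 ± 11.8 CPM in WT, and the mitochondrially encoded sum was lowest at 24 h. Of the complex IV members at 24 h, 4 were higher and 4 lower than unstimulated in libraries labelled CIS-/-, and 3 and 3 in WT, with Cox8a the largest rise.

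Ndufv3, an accessory subunit of the NADH-oxidising module of complex I, showed the largest fall of any member. In libraries labelled CIS-/- it measured 30.8, 28.8 and 28.5 CPM unstimulated, 6.52, 6.33 and 5.70 CPM at 4 h and 3.64, 3.40 and 2.85 CPM at 24 h. In WT it measured 30.4, 33.7 and 32.5 CPM unstimulated, 8.53, 7.06 and 7.23 CPM at 4 h and 6.75, 8.03 and 7.89 CPM at 24 h. No cultured library reached an unstimulated one. The log2 fold change at 4 h was -2.24 ± 0.10, adjusted p = 3.07e-30 in libraries labelled CIS-/- and -2.08 ± 0.09, adjusted p = 6.62e-30 in WT (each ± SE, edgeR's quasi-likelihood test with Benjamini-Hochberg adjustment over all genes, as for every adjusted p here). Ndufa9, an accessory subunit near the quinone site, was next in WT at -1.22 ± 0.12, adjusted p = 1.06e-13, with 4.49, 5.09 and 4.98 CPM at 4 h against 10.9, 10.8 and 12.2 CPM unstimulated. Ndufa8, another accessory subunit, was second in libraries labelled CIS-/-, at -1.18 ± 0.07, adjusted p = 9.53e-22. Ndufv1, which binds FMN and takes the electrons from NADH, fell by 0.67 on the log2 scale in WT (adjusted p = 1.52e-08). Ndufs1, the large iron-sulfur subunit of the same module, was the one complex I member that rose: it measured 58.9, 64.2 and 57.9 CPM at 4 h against 43.9, 43.9 and 43.6 CPM unstimulated in libraries labelled CIS-/- (0.47 ± 0.05, adjusted p = 8.04e-12), and 57.6, 54.5 and 58.7 CPM against 53.4, 49.6 and 50.1 CPM in WT (0.16 ± 0.05, adjusted p = 0.00572). Its change in WT was -0.020 and not called when library sizes were used without TMM factors.

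In complex II, Sdhd, a membrane anchor, rose at 4 h in both genotypes, with log2 fold changes of 0.24 ± 0.05, adjusted p = 9.2e-06 in libraries labelled CIS-/- and 0.33 ± 0.05, adjusted p = 2.33e-08 in WT. On library sizes without TMM factors its changes were 0.098 and not called in libraries labelled CIS-/-, and 0.15 and called in WT. Sdha, the flavoprotein that oxidises succinate, was 0.02 in WT and not called, while Sdhb, the iron-sulfur subunit, was -0.16 and Sdhc, the other anchor, -0.22. The call of Sdhb was lost without unstimulated WT replicate 2 or WT 4 h replicate 3 (adjusted p = 0.0551 to 0.0592), and that of Sdhc without unstimulated WT replicate 2 or 3 or WT 4 h replicate 2 (adjusted p = 0.056 to 0.133). In complex III the small subunit genes Uqcr11 (-0.76 ± 0.12, adjusted p = 1.49e-07) and Uqcrb (-0.59 ± 0.13, adjusted p = 7.09e-05) fell most in WT, and both share sequence with copies. Uqcrfs1, the Rieske iron-sulfur protein, fell less, at -0.25 ± 0.07, adjusted p = 0.00108, and Uqcrc2, a core protein, was -0.17, a call lost without unstimulated WT replicate 1 (adjusted p = 0.0513).

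In complex IV, Cox8a rose while most others fell. It was 0.54 higher on the log2 scale in WT at 4 h (± 0.07, adjusted p = 1.91e-06), and Cox5b rose by 0.20, which was 0.020 and not called on library sizes without TMM factors. Cox5a, which faces the matrix, fell most (-0.60 ± 0.07, adjusted p = 2.31e-11), followed by Ndufa4, a complex IV subunit despite its name (-0.51 ± 0.09, adjusted p = 3.68e-07). In complex V the gamma subunit gene Atp5c1, the rotor shaft, measured 34.0, 34.1 and 33.2 CPM at 4 h against 66.8, 63.5 and 64.6 CPM unstimulated in libraries labelled CIS-/- (-0.94 ± 0.06, adjusted p = 6.45e-23). In WT it measured 34.1, 35.4 and 37.8 CPM at 4 h against 65.8, 71.2 and 68.4 CPM unstimulated (-0.94 ± 0.06, adjusted p = 3.58e-23), so the 4 h libraries lay below the unstimulated ones in both. The gene of the delta subunit, Atp5d, was -0.73 ± 0.07, adjusted p = 1.27e-13 in WT. The catalytic subunits did not share this fall: Atp5b was 0.03 and not called, and Atp5a1 was 0.10, a call lost without unstimulated WT replicate 1 or 3 or WT 4 h replicate 2 or 3 (adjusted p = 0.0532 to 0.165).

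**Figure D2:**
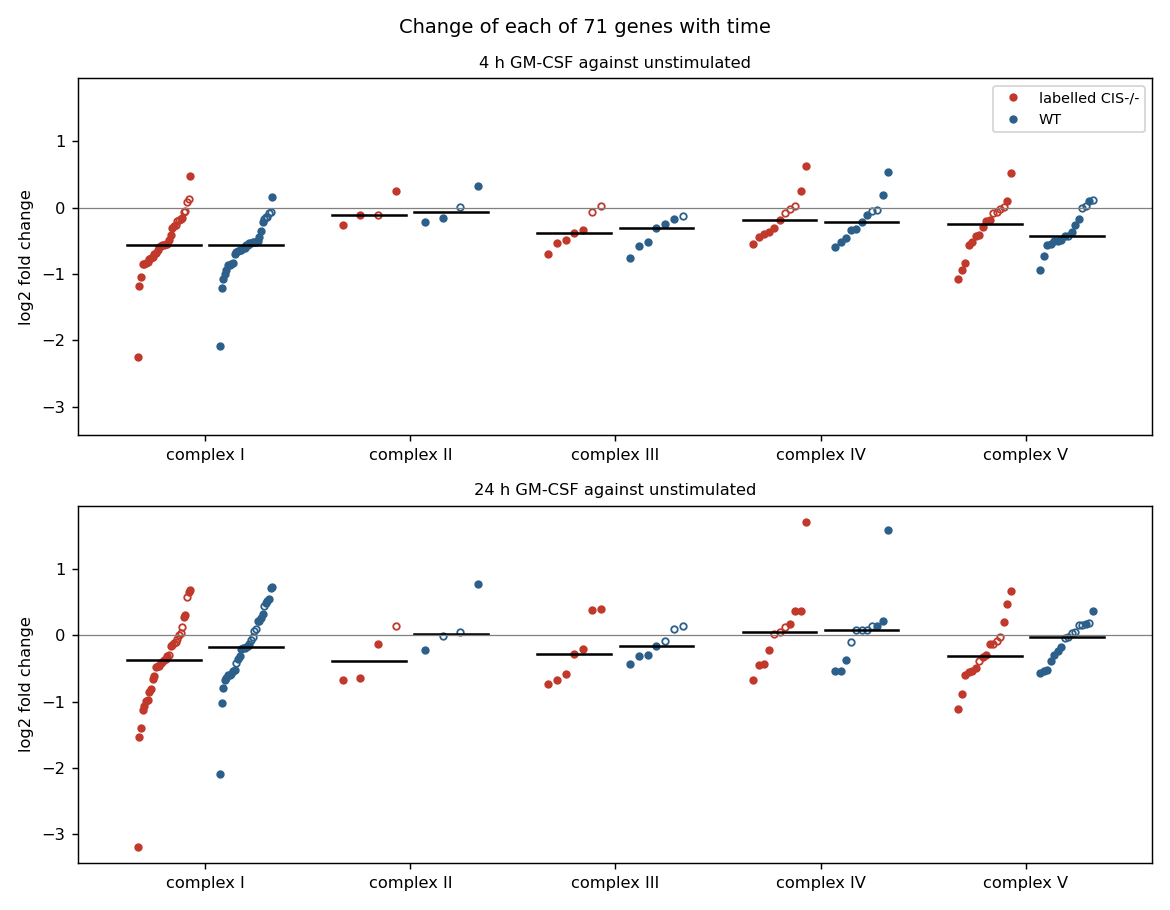
Log2 fold change of each of the 71 members, by complex, at 4 h (top) and 24 h (bottom) against unstimulated, with libraries labelled CIS-/- (red) left of WT (blue); filled points were called at adjusted p under 0.05, open points were not, and bars are medians. Complex I lay lowest at 4 h with medians of -0.56 in libraries labelled CIS-/- and -0.56 in WT, and Cox8a is the highest point at 24 h in both. The WT points at 24 h shift up on library sizes without TMM factors, so that 40 members were called higher and 14 lower, as were 54.9% and 27.4% of all genes.

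In libraries labelled CIS-/- at 24 h, members that fell still outnumbered those that rose. Against unstimulated, 40 fell, 13 rose and 18 were not called, with a median of -0.30, where 84.1% of all genes were called, 42.1% higher and 42% lower. On library sizes without TMM factors, which move the median of all genes to -0.197, 48 fell and 8 rose, and the 40 falls were all kept. Of all genes, 47.8% fell and 36.7% rose there. From 4 h to 24 h, 23 members rose and 18 fell (75.7% of all genes called, 37.8% higher and 37.9% lower). After Ndufv3 (-3.18 ± 0.11, adjusted p = 1.32e-35), the falls of complex I were led by Ndufb11, an accessory subunit of the membrane arm. It had 18.0, 18.7 and 15.4 CPM at 24 h against 50.2, 50.2 and 46.9 CPM unstimulated (-1.53 ± 0.07, adjusted p = 6.66e-29), and shares sequence with a copy. In complex II, Sdhd (-0.67 ± 0.05, adjusted p = 5.87e-18), Sdhb (-0.65 ± 0.06, adjusted p = 1.78e-15) and Sdha (-0.13 ± 0.04, adjusted p = 0.00595) fell, and Sdhc was 0.15 and not called. In complex III, Uqcr11 was -0.73 and Uqcrh, the hinge protein gene, -0.67, in complex IV Cox6c was -0.68, and in complex V Atp5h, of the peripheral stalk, was -1.11 and Atp5c1 -0.88. Beside Cox8a, the rises were Ndufb3 (0.68), Ndufs8, Atp5g1 (0.67, at 2.71, 2.76 and 2.80 CPM), Uqcrq (0.38) and Uqcrb (0.40), among others. The call of Uqcrb was lost without 24 h labelled CIS-/- replicate 1 (adjusted p = 0.0536).

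In WT at 24 h the members had split. Against unstimulated WT, 14 rose, 31 fell and 26 were not called, with a median of -0.09, where 78.4% of all genes were called, 40.7% higher and 37.7% lower. On library sizes without TMM factors, which move the median of all genes to 0.36 here, the split turned to 40 higher and 14 lower. Of all genes, 54.9% were higher and 27.4% lower there. All 14 members that rose with TMM factors were higher without them too, and 14 of the 31 that fell were lower, while 4 were called higher. From 4 h to 24 h in WT, 39 members rose and 8 fell (75.3% of all genes called, 35.7% higher and 39.6% lower). None of those 8 falls was kept without TMM factors, where 6 of the 8 were called higher. In that setting 68 members rose, and 58.4% of all genes were higher and 21.7% lower.

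The rises that held under both scalings were led by Cox8a, Sdha and iron-sulfur subunits of complex I. Cox8a measured 89.3, 88.3 and 93.0 CPM unstimulated, 144, 148 and 126 CPM at 4 h and 328, 284 and 269.7 CPM at 24 h in libraries labelled CIS-/-. In WT it measured 86.6, 84.0 and 83.8 CPM unstimulated, 123, 116 and 132 CPM at 4 h and 266, 247 and 247 CPM at 24 h. The groups stepped upward without overlap at each time. Its log2 fold change at 24 h was 1.70 ± 0.07, adjusted p = 1.96e-14 in libraries labelled CIS-/- and 1.58 ± 0.07, adjusted p = 7.43e-14 in WT, and no other member rose as much in either. Ndufs7, an iron-sulfur subunit at the quinone site of complex I, had 28.1, 26.0 and 27.9 CPM in WT at 24 h against 8.45, 8.90 and 8.43 CPM at 4 h (1.66 ± 0.09, adjusted p = 3.22e-25), and was also higher than unstimulated (0.72 ± 0.07, adjusted p = 3.26e-13). Ndufs8, which carries iron-sulfur clusters beside it, rose by 0.65 in libraries labelled CIS-/- and 0.73 in WT. Ndufv1 was 1.18 ± 0.09, adjusted p = 1.75e-18 between 4 h and 24 h in WT. In complex V, Atp5d rose most at 24 h (0.36 ± 0.06, adjusted p = 2.13e-07), and in complex III no WT member rose against unstimulated with TMM factors. Without them Uqcr11 (0.45), Uqcrq (0.40), Uqcr10 (0.22) and Uqcrh (0.15) were called higher, and Uqcrb, Uqcrc2 and Uqcrfs1 were not called.

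The falls at 24 h in WT again had Ndufv3 first (-2.08 ± 0.08, adjusted p = 1.06e-32), then Ndufs4, an accessory subunit whose loss in mice gives a Leigh-like encephalopathy. Ndufs4 averaged 11.5 ± 1.7 CPM at 24 h against 23.6 ± 1.4 CPM unstimulated (SD, n = 3 each, -1.02 ± 0.08, adjusted p = 2.54e-17). In complex IV, Cox7c (-0.53 ± 0.09, adjusted p = 5.6e-07) and Cox6c (-0.53 ± 0.07, adjusted p = 3.65e-10) were lowest, and in complex V Atp5f1 (-0.57 ± 0.04, adjusted p = 6.72e-19) and Atp5o (-0.54 ± 0.08, adjusted p = 2.44e-08), parts of the peripheral stalk. All 4 share sequence with copies. Uqcrb was -0.44 and Uqcrfs1 -0.32 in complex III, and Sdhb -0.22 in complex II. Without TMM factors Uqcrb and Uqcrfs1 were not called, and Sdhb was 0.084. Atp5b, the most abundant complex V member per length, was -0.02 in WT and not called with TMM factors, and 0.29 and called without them.

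The time courses of the genotypes share no libraries, so their calls can be set side by side. At 4 h, 44 members fell in both, 95.7% of the 46 in libraries labelled CIS-/- and 84.6% of the 52 in WT, and none moved in opposite directions. Of all genes that fell at 4 h, the shared ones were 86.8% of those in libraries labelled CIS-/- and 88.9% of those in WT. At 24 h with TMM factors, 28 members fell in both, 70% of the 40 in libraries labelled CIS-/- and 90.3% of the 31 in WT, where the shares of all genes were 70.3% and 78.4%. Members that rose in both were 3, 23.1% of the 13 in libraries labelled CIS-/- and 21.4% of the 14 in WT, where the shares of all genes were 70.6% and 72.9%. These overlaps changed on library sizes without TMM factors, where 14 members fell in both, 29.2% of the 48 in libraries labelled CIS-/- and 100% of the 14 in WT, and 8 rose in both, 100% of the 8 in libraries labelled CIS-/- and 20% of the 40 in WT. The shares of all genes there were 50.7% and 88.5% for falls and 84.8% and 56.7% for rises. With TMM factors 5 members were called in opposite directions at 24 h (Ndufa6, Ndufb5, Sdha, Uqcrb and Cox4i1), and without them 21, among which were those 5 except Uqcrb, called there in neither genotype.

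Between the genotypes, the members differed little before 24 h. In unstimulated cells, 3 members were higher and 5 lower in libraries labelled CIS-/-, 11.3% called, where 22.3% of all genes were called (12.9% higher and 9.41% lower). Without TMM factors 2 members were higher and 11 lower (10.1% and 14.3% of all genes). The largest was Atp5l, a small membrane subunit of complex V, with 15.5, 14.6 and 14.9 CPM in libraries labelled CIS-/- and 8.62, 8.66 and 9.23 CPM in WT (0.76 ± 0.11, adjusted p = 3.74e-08). The groups did not overlap, but Atp5l lies on chromosome 9, at 44912557 to 44920742 (mm10), outside the window around Cish, and has 9 near-identical copies, so the counts are uncertain. Uqcrfs1 was higher too, with 32.8, 30.7 and 31.2 CPM in libraries labelled CIS-/- and 26.2, 26.0 and 24.1 CPM in WT (0.31 ± 0.06, adjusted p = 0.000108). Ndufs1 (-0.22 ± 0.05, adjusted p = 0.00108) and Ndufv2, an iron-sulfur subunit of the NADH module (-0.31 ± 0.08, adjusted p = 0.00456), were lower. Uqcrh (0.18), Uqcrc2 (-0.16), Uqcrb (-0.33) and Ndufa9 (-0.31) were called as well, but each call was lost when any 1 of several libraries was left out. That of Uqcrh was lost without unstimulated labelled CIS-/- replicate 1 or 2 or unstimulated WT replicate 1 or 2 or 3 (adjusted p = 0.0637 to 0.182), and that of Uqcrc2 without unstimulated labelled CIS-/- replicate 1 or 2 or unstimulated WT replicate 1 or 3 (adjusted p = 0.0661 to 0.212). Uqcrb lost its call without unstimulated labelled CIS-/- replicate 1 or 2 or 3 or unstimulated WT replicate 1 or 2 or 3 (adjusted p = 0.057 to 0.164), and Ndufa9 without unstimulated labelled CIS-/- replicate 1 or unstimulated WT replicate 3 (adjusted p = 0.16 to 0.213).

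At 4 h, edgeR called 0 members in either direction, where 17.3% of all genes were called (8% higher and 9.29% lower). At an unadjusted p under 0.05 there were 7 members, 9.86%, against 27.5% of all genes. DESeq2 called 1 member higher and limma-voom none. The members' log2 differences ran from -0.576 to 0.414, and 67 of 71 were under 0.25 in size. Complex I sums at 4 h were 502 ± 15.9 CPM in libraries labelled CIS-/- and 501 ± 6.17 CPM in WT (SD, n = 3 each).

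At 24 h the genotypes parted. In libraries labelled CIS-/-, 41 members were lower and 15 higher than in WT, with a median of -0.22, where 76.3% of all genes were called, 38.2% higher and 38.1% lower. Lower calls were most frequent in complexes I and II. In complex I, 24 of 33 members were lower and 5 higher (median -0.46), and in complex II 3 of 4 were lower (median -0.49). With all libraries, complexes III and IV were even, with 3 lower and 3 higher, and 4 lower and 4 higher, and complex V had 7 lower and 3 higher of 16. The 41 lower calls were all kept on library sizes without TMM factors, but none of the 15 higher calls was: there 61 members were lower and 0 higher, with medians of -0.755 over the members and -0.552 over all genes, and 8 of the 15 were called lower. Of all genes, 60.5% were lower and 22.1% higher in that setting. Without replicate 1 labelled CIS-/- at 24 h, 24 complex I members were still lower, and 3 higher, with a median of -0.47. Complex II then had 3 lower and 0 higher, complex III 4 lower and 3 higher (median -0.28), complex IV 5 lower and 3 higher (-0.10) and complex V 9 lower and 3 higher (-0.18).

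Sdha gave the clearest difference of complex II. At 24 h it measured 85.9, 86.7 and 87.7 CPM in libraries labelled CIS-/- and 162, 158 and 146 CPM in WT (-0.84 ± 0.04, adjusted p = 6.79e-27). In the unstimulated libraries it measured 92.7, 98.3 and 94.2 CPM in those labelled CIS-/- and 92.5, 88.7 and 91.5 CPM in WT, so the WT libraries at 24 h were the ones that stood apart. Sdhd was -0.61 ± 0.05, adjusted p = 8.22e-17, Sdhb -0.37 ± 0.06, adjusted p = 4.77e-08, and Sdhc 0.16 and not called. In complex I, Ndufv3 (-1.23 ± 0.13, adjusted p = 9.6e-13) and Ndufb10, an accessory subunit of the membrane arm (-1.07 ± 0.09, adjusted p = 5.5e-16), were lowest, Ndufb10 at 11.9, 8.27 and 9.05 CPM in libraries labelled CIS-/- and 20.3, 20.3 and 20.8 CPM in WT. Ndufs7 was not called against unstimulated in libraries labelled CIS-/- (0.04 ± 0.09, adjusted p = 0.676), with 17.1, 14.2 and 16.2 CPM at 24 h (-0.77 ± 0.08, adjusted p = 8.25e-14 against WT). Ndufv1 was -0.46 ± 0.08, adjusted p = 6.07e-07. Ndufb3 (0.52) and Ndufa11 (0.39), both of the membrane arm, were highest in complex I, but were -0.016 and -0.14 on library sizes without TMM factors, and the call of Ndufa11 was lost without 24 h labelled CIS-/- replicate 1 or 3 or WT 24 h replicate 1 or 3 (adjusted p = 0.0519 to 0.153).

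**Figure D3:**
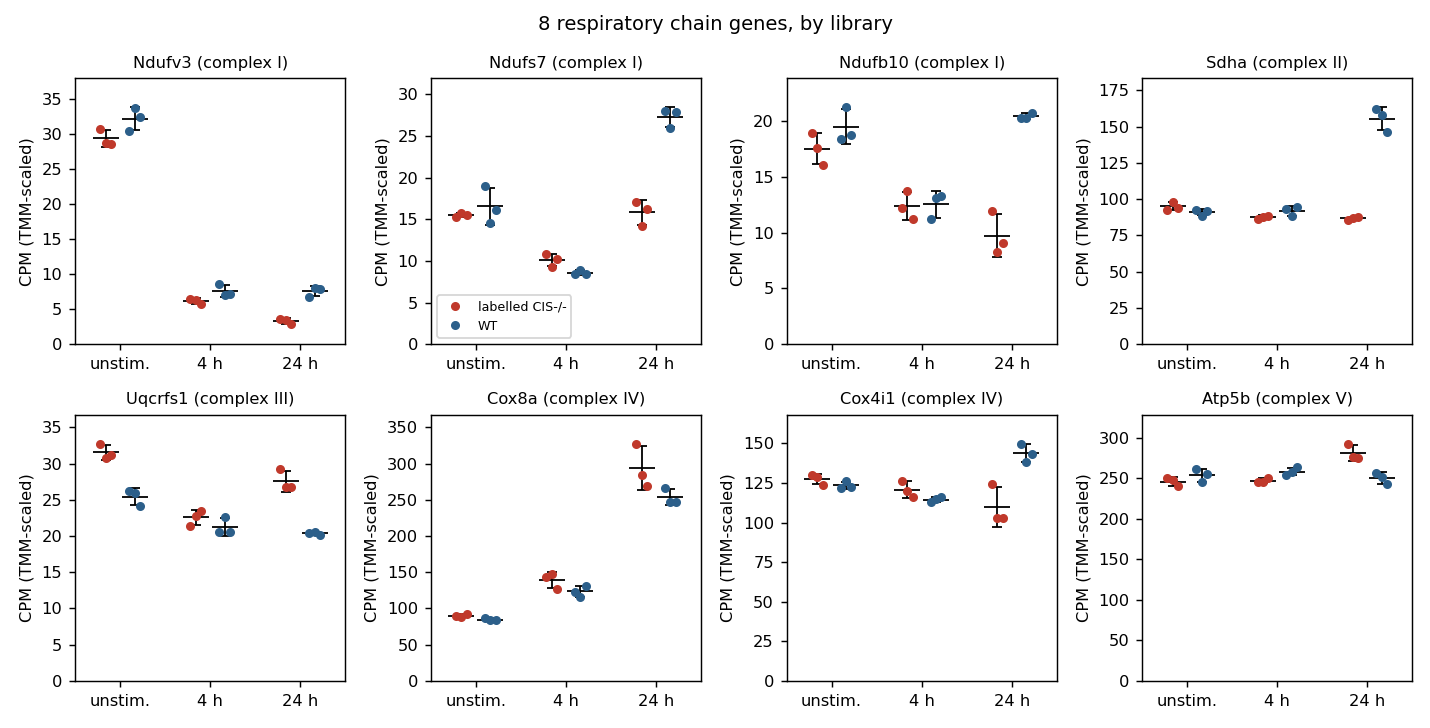
CPM (TMM-scaled) of 8 members in every library, by time, with libraries labelled CIS-/- (red) left of WT (blue); bars and whiskers are the mean ± SD (n = 3). Ndufv3 fell in both genotypes, Cox8a rose in both, and at 24 h Sdha, Ndufs7, Ndufb10 and Cox4i1 were lower in libraries labelled CIS-/- than in WT.

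In complex III, Uqcr11 had 6.20, 7.81 and 5.65 CPM at 24 h in libraries labelled CIS-/- and 11.4, 11.3 and 11.96 CPM in WT (-0.85 ± 0.11, adjusted p = 6.62e-10), and Uqcrc2 was -0.44 ± 0.06, adjusted p = 7.22e-09. The Rieske gene Uqcrfs1 went the other way, with 29.3, 26.7 and 26.7 CPM in libraries labelled CIS-/- and 20.5, 20.5 and 20.2 CPM in WT (0.43 ± 0.07, adjusted p = 3.14e-08), as did Uqcrb (0.51 ± 0.12, adjusted p = 0.000108). On library sizes without TMM factors they were -0.10 and -0.025, and neither was called. In complex IV, Cox4i1, a nuclear subunit that enters early in assembly, had 124, 103 and 103 CPM in libraries labelled CIS-/- and 149.9, 138 and 144 CPM in WT (-0.39 ± 0.05, adjusted p = 1.31e-10), and Ndufa4 was -0.27 ± 0.09, adjusted p = 0.00411. Cox7a2 (0.44), Cox7b (0.26) and Cox8a (0.21) were higher with TMM factors, and -0.097, -0.27 and -0.32 without them. In complex V, Atp5h had 28.7, 20.7 and 24.6 CPM in libraries labelled CIS-/- and 44.7, 45.2 and 43.6 CPM in WT (-0.84 ± 0.07, adjusted p = 3.41e-16), and Atp5c1 had 36.9, 31.2 and 36.6 CPM in libraries labelled CIS-/- and 59.3, 60.9 and 60.7 CPM in WT (-0.78 ± 0.05, adjusted p = 5.02e-20). Both share sequence with copies. Of the catalytic subunits, Atp5a1 was -0.37 ± 0.04, adjusted p = 9.68e-12 and Atp5b 0.17 ± 0.03, adjusted p = 1.79e-05, and Atp5b was -0.36 without TMM factors.

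Markers of other cells moved with this comparison. At 24 h the summed monocyte or macrophage markers were 1009 to 1048 CPM in libraries labelled CIS-/- and 539.9 to 560.5 CPM in WT, although C1qb was at 0 in libraries labelled CIS-/- and C1qa and C1qc in WT. Erythroid markers were 78.5 to 85.3 CPM in libraries labelled CIS-/- and 25.5 to 28.5 CPM in WT, with Klf1 and Epor at 0 in WT. Dendritic markers were 89.2 to 91.2 CPM in libraries labelled CIS-/- and 21.9 to 22.6 CPM in WT, and platelet markers 93.3 to 112 CPM in libraries labelled CIS-/- and 13.4 to 15.7 CPM in WT, with Gp9 at 0 in both. In the unstimulated libraries the erythroid sum was 131 to 135 CPM in those labelled CIS-/- and 51.0 to 53.4 CPM in WT. The part of these cells in the members' differences was not tested.

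**Figure D4:**
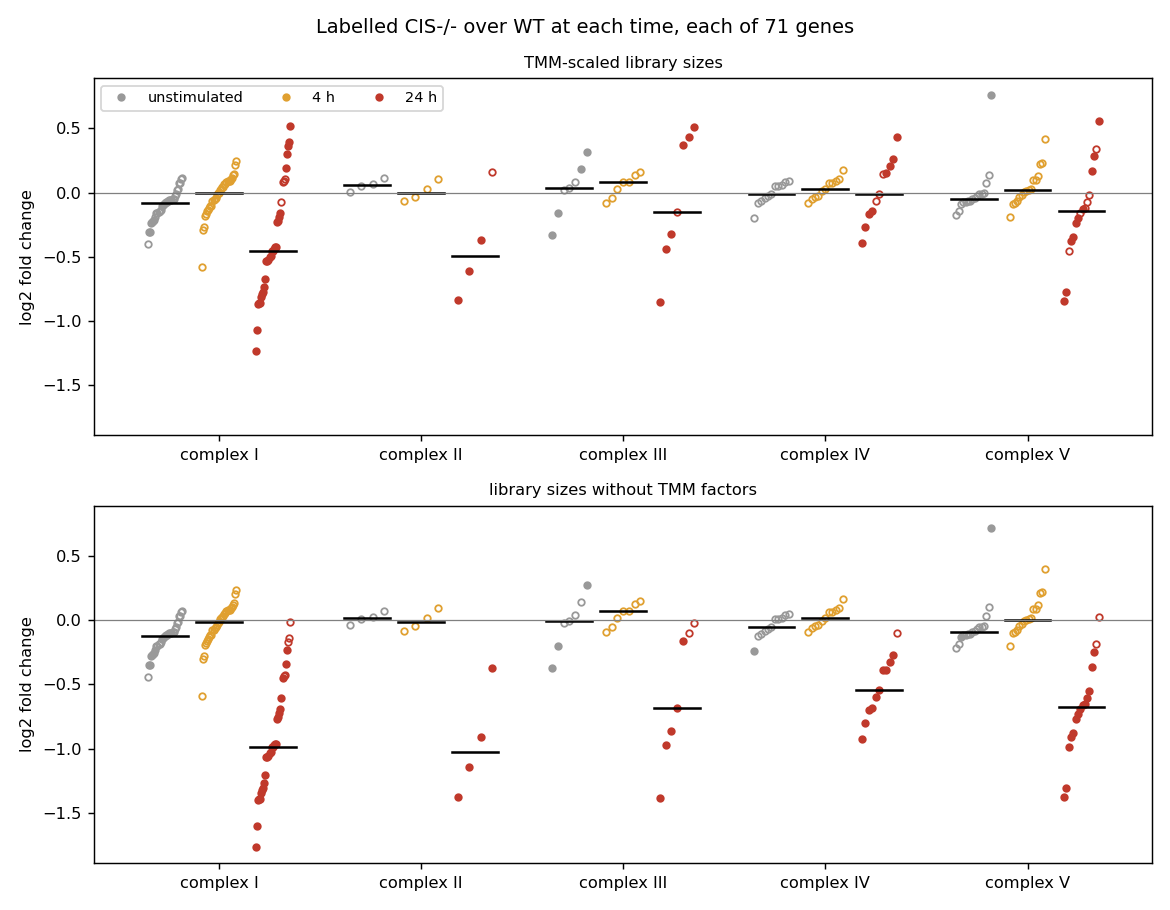
Log2 fold change, labelled CIS-/- over WT, of each of the 71 members by complex at each time, with TMM factors (top) and on library sizes without them (bottom); filled points were called at adjusted p under 0.05, open points were not, and bars are medians. At 24 h the complex I median was -0.46 with TMM factors, and no member was called higher without them.

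With TMM factors, the interaction of genotype and time was called for a smaller share of the members than of all genes at each step. Without them this was so only at 4 h against unstimulated. At 24 h against unstimulated, 26 members were lower and 10 higher in libraries labelled CIS-/- relative to WT, 50.7% called, where 64.7% of all genes were called (31.6% higher and 33.1% lower). On library sizes without TMM factors, 58 were lower and 0 higher, where 53.4% of all genes were lower and 17.5% higher. Ndufv3 (-1.10 ± 0.15, adjusted p = 2.69e-09), Ndufb10 (-0.92 ± 0.13, adjusted p = 4.34e-09) and Sdha (-0.90 ± 0.06, adjusted p = 1.29e-20) had the most negative terms of the members, and Uqcrb (0.84 ± 0.17, adjusted p = 1.7e-05) and Ndufb3 (0.75 ± 0.12, adjusted p = 3.52e-07) the most positive, both of which share sequence with copies. Between 4 h and 24 h, 31 members were lower and 8 higher, 54.9% called, where 66% of all genes were called (33.9% higher and 32.1% lower). Without TMM factors 58 were lower and 0 higher, where 53.2% of all genes were lower and 19.4% higher. At 4 h against unstimulated, 2 members were higher and 1 lower, 4.23% called, where 15.7% of all genes were called (5.32% higher and 10.4% lower). These were Ndufs1 (0.31 ± 0.07, adjusted p = 0.00132), Atp5f1 (0.19) and Atp5l (-0.54), of which Atp5f1 lost its call without unstimulated labelled CIS-/- replicate 2, 4 h labelled CIS-/- replicate 2, unstimulated WT replicate 1 or WT 4 h replicate 1 or 2 (adjusted p = 0.0666 to 0.161) and Atp5l without unstimulated labelled CIS-/- replicate 1, 4 h labelled CIS-/- replicate 2 or 3, unstimulated WT replicate 1 or WT 4 h replicate 1 (adjusted p = 0.0584 to 0.136).

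The subunits encoded by mitochondrial DNA took another course. Of 13 genes, 6 had enough counts to be tested (mt-Nd1, mt-Nd2, mt-Nd4, mt-Nd5, mt-Cytb and mt-Co1). All 13 summed to 580.5, 559.8 and 566 CPM unstimulated, 419.9, 478 and 432 CPM at 4 h and 272, 253 and 282 CPM at 24 h in libraries labelled CIS-/-. In WT the sums were 680.3, 637 and 646 CPM unstimulated, 500.3, 516 and 502 CPM at 4 h and 224, 249 and 233 CPM at 24 h, falling at each step without overlap. At 24 h in WT all 6 were lower than unstimulated, with a median of -1.19, where the nuclear members' median was -0.09. Without TMM factors these medians were -0.882 and 0.215. mt-Co1, the catalytic subunit of complex IV, averaged 87.2 ± 4.4 CPM at 24 h against 319.9 ± 6.9 CPM unstimulated in WT (-1.87 ± 0.04, adjusted p = 4.13e-37). Of the 11 nuclear complex IV members, 3 rose there, Cox8a and Cox4i1 among them, 3 fell and 5 were not called. In libraries labelled CIS-/- at 24 h, mt-Co1 averaged 97.8 ± 6.7 CPM against 279 ± 5.5 CPM unstimulated (-1.50 ± 0.05, adjusted p = 1.28e-32). Between unstimulated genotypes, 5 of the 6 were lower in libraries labelled CIS-/- with TMM factors (median -0.217) and all 6 without them (-0.258). At 4 h, 5 were lower with TMM factors (-0.199) and all 6 without them (-0.21). Of all genes, 9.41% unstimulated and 9.29% at 4 h were lower with TMM factors, and 14.3% and 10.2% without. Between genotypes at 24 h, 4 of the 6 were higher in libraries labelled CIS-/- with TMM factors (median 0.18) and all 6 were lower without them (median -0.35).

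Other mitochondrial gene lists did not move as one, and their splits at 24 h also depended on the scaling. Counts here are with TMM factors, followed by those without them. Of 26 tested genes of protein import and cristae, 17 rose and 5 fell at 24 h in libraries labelled CIS-/- and 16 rose and 5 fell in WT (without TMM factors 12 and 6 in libraries labelled CIS-/-, and 19 and 3 in WT). They were led by Hspa9, the matrix Hsp70, at 4.08 ± 0.07, adjusted p = 7.17e-52 in libraries labelled CIS-/- and 2.43 ± 0.09, adjusted p = 5.73e-33 in WT. Immt and Timm23 rose in both genotypes, Tomm7 rose in WT (0.49), and Tomm22 fell in libraries labelled CIS-/- (-0.61). Of 25 genes of the TCA cycle and pyruvate entry, 18 fell and 3 rose at 4 h in both genotypes. At 24 h, 17 of the 25 were lower and 4 higher in libraries labelled CIS-/- than in WT (21 and 1 without), where 38.1% of all genes were lower and 38.2% higher (60.5% and 22.1% without). Idh3g (-1.03), Pdha1 (-0.90) and Mdh2 (-0.52) were lower and pyruvate carboxylase, Pcx (4.28), was higher. Of 73 mitochondrial ribosomal proteins, 31 were lower and 19 higher in libraries labelled CIS-/- than in WT at 24 h, or 52 and 7 without TMM factors (Mrpl52 3.11, Mrpl41 1.32, Mrpl24 -0.86 and Mrpl54 1.70), and of 49 assembly factors 21 were lower and 10 higher, or 34 and 5 without (Cox7a2l -1.80, Cox17 1.41, Tmem126a 2.55 and Uqcc3 -1.45).

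Of 20 tested regulators of mitochondrial biogenesis, 7 were lower and 6 higher in libraries labelled CIS-/- than in WT at 24 h, or 14 and 4 without TMM factors. Pprc1, a coactivator related to PGC-1 alpha, had 21.8, 25.4 and 23.1 CPM in libraries labelled CIS-/- and 2.33, 2.36 and 1.91 CPM in WT (3.39 ± 0.13, adjusted p = 3.15e-33), with Sirt1 1.85, Gabpb1 0.79 and Hif1a 0.57, the last being 0.038 and not called without them. The levels of Nrf1, a transcription factor for many respiratory chain genes that was singled out after its values were seen, were 48.8 ± 1.8 CPM in libraries labelled CIS-/- and 47.0 ± 1 CPM in WT (0.05 ± 0.05, adjusted p = 0.35), but its log2 difference without TMM factors was -0.48 (adjusted p = 6.69e-13). Of 21 electron carrier and coenzyme Q genes, 8 were lower and 6 higher, or 12 and 3 without TMM factors (Coq10b 1.91, Cycs 1.89, Etfdh -0.85 and Coq9 -0.78), Cycs being cytochrome c. Of 19 genes of carriers, uncoupling and dynamics, 10 were lower and 6 higher, or 16 and 2 without. These included Sod2, the matrix superoxide dismutase, with 579 ± 35 CPM in libraries labelled CIS-/- and 96.0 ± 2.6 CPM in WT (2.59 ± 0.04, adjusted p = 2.38e-53), Dnm1l (2.38), Bnip3 (-2.16) and Pink1 (-0.87).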

How the data were processed

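The authors deposited 1 table of raw read counts per gene for 18 libraries of bulk RNA, made with a strand-specific kit from RNA of RIN above 7 per the labels' protocols. Reads were handled with Trimmomatic, STAR and featureCounts on mm10, per the submitters' processing notes. For their versions, the annotation release and the strand setting used in counting, the sources used here give nothing, and reads of overlapping genes cannot be told apart.

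Gene symbols and coordinates came from the reference annotation. Of the gene IDs, 105 had no name there and took 0.024% of counts. Genes were filtered with filterByExpr, leaving 11569, and fitted in 1 edgeR quasi-likelihood model of the 6 groups (R 4.3.3, edgeR 4.0.16, limma 3.58.1) with TMM factors and robust dispersions. The 12 contrasts were adjusted by Benjamini-Hochberg over all genes tested, and adjusted p under 0.05 is a call. The test was also run on simulated counts in which few genes changed, which cannot check the choice of scaling. Its outcome is not given here. Alternatives were DESeq2 1.42.0, limma-voom, other scalings and filters, non-robust dispersions, the compared groups alone, a replicate block, members without copies, and each library left out.

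Genes named are, for each main comparison and complex, the 2 most positive and 2 most negative members, with core subunits, isoform sets, and for each other list the 4 genes with the smallest adjusted p. Members and lists were chosen with earlier results of these data known. Promoters are RefSeq windows.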

Additional observations from a re-analysis of the deposited data

Results flagged for a closer look

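The change with time was compared between libraries labelled CIS-/- and WT by the interaction term of the edgeR model. With TMM factors and in the order given below, 50.7%, 54.9% and 4.23% of members were called, against 64.7%, 66% and 15.7% of all genes. At 24 h against unstimulated, 10 members had a higher and 26 a lower term, between 4 h and 24 h 8 had a higher and 31 a lower one, and at 4 h against unstimulated 2 had a higher and 1 a lower one. On library sizes without TMM factors the first 2 of these counts were 0 higher and 58 lower each. Of all genes, 53.4% and 53.2% were lower and 17.5% and 19.4% higher there, so the members' share was no longer the smaller.

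At 24 h the interaction terms, on the log2 scale and as labelled CIS-/- minus WT, were for complex I -1.10 (Ndufv3), -0.92 (Ndufb10), -0.68 (Ndufs7) and 0.75 (Ndufb3). For complex II they were -0.90 (Sdha), -0.72 (Sdhd) and -0.42 (Sdhb), and for complex III -0.88 (Uqcr11) and 0.84 (Uqcrb). For complex IV they were -0.44 (Cox4i1) and 0.48 (Cox7a2), and for complex V -0.82 (Atp5h), -0.70 (Atp5c1) and 0.21 (Atp5b). At 4 h they were 0.31 (Ndufs1), 0.19 (Atp5f1) and -0.54 (Atp5l).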

How the results depend on the processing

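Scaling moved the counts most, and the shares of all genes called higher or lower moved with it. On library sizes without TMM factors, members called were 2 higher at 4 h in libraries labelled CIS-/- and 2 in WT, 8 higher at 24 h in those labelled CIS-/-, 40 higher and 14 lower at 24 h in WT, and 68 higher and 0 lower at 24 h against 4 h in WT. Between genotypes they were 11 lower unstimulated and 0 higher at 24 h, and the interactions at 24 h gave 0 higher and 58 lower against both earlier times. The sign of 5 members turned at 4 h in WT, of 19 at 24 h and 23 at 24 h against 4 h in WT, of 20 between genotypes at 24 h and of 16 in the interaction at 24 h. Examples follow and are not the full list. It turned at 4 h in WT for Ndufs1 (-0.020), Sdha (-0.16), Atp5a1 (-0.074) and Atp5b (-0.15). It turned at 24 h in WT for Ndufs1 (0.10), Sdhb (0.084), Sdhc (0.29), Atp5b (0.29) and Atp5c1 (0.13), and against 4 h for Ndufv2 (0.11), Sdhd (0.21) and Atp5f1 (0.17). Between genotypes at 24 h it turned for Ndufa11 (-0.14), Ndufb3 (-0.016), Sdhc (-0.37), Uqcrfs1 (-0.10), Uqcrb (-0.025), Cox7b (-0.27), Cox7a2 (-0.097), Cox8a (-0.32) and Atp5b (-0.36), and in the interaction at 24 h for Cox7a2 (-0.014) and Atp5b (-0.28). The cause was not tested.

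Between unstimulated genotypes, the 5 lower calls became 2 with DESeq2, 3 without a filter, 3 with members of at least 10 CPM and 9 with the compared groups alone, where 6 were higher. At 4 h, members higher were 1 with DESeq2, 1 without a filter, 1 with non-robust dispersions, 1 with the replicate block and 3 with the compared groups alone. Without copy-bearing members, chosen as an alternative after seeing the data, 8 were higher at 24 h in libraries labelled CIS-/-, and 1 was higher and 0 lower in the interaction at 4 h, where 0 were lower at 10 CPM. Without a filter, 5 were higher in the interaction of 24 h with 4 h. With 1 library left out, the unstimulated genotypes gave 2 to 6 lower, the 4 h genotypes 0 to 2 higher and 0 to 1 lower, the interaction at 4 h 1 to 3 higher and 0 to 2 lower, and that of 24 h with 4 h 5 to 11 higher, with 5 without replicate 1 labelled CIS-/- at 24 h. Deviations of same-numbered libraries from their group means correlated weakly (4 of 45 correlations over 0.1). The highest, 0.198, was between 4 h and 24 h in libraries labelled CIS-/-. Differently numbered libraries were not compared, so this does not settle whether the numbers pair them. A replicate block gave 9 lower at 24 h against 4 h in WT and 6 lower between unstimulated genotypes.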
